A study of Mus musculus with 6 samples.

Results

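The 44 collagen genes are the rows of the authors' deposited table, out of 20280 genes listed, whose symbol is made of Col, a type number, the letter a and a chain number. Each encodes 1 chain of the collagen triple helix. RNA-seq was made from E8.5 embryos of inbred FVB/N mice, as 3 libraries of wildtype embryos (*Tip55*+/+) and 3 of *Tip55* knockout embryos (*Tip55*Δ/Δ, called mutant). Both came from intercrosses of heterozygous mice, and Cre, which can convert the allele further, was not used. The knockout allele of *Kat5* lacks the introns from which the *Tip55* splice form takes its own coding sequence, and the exons around them are fused. *Tip55* is 1 of several splice forms of *Kat5*, a lysine acetyltransferase of histones. The stage lies before defects of shape can be seen in the mutants. Whether a library holds 1 embryo or several, and whether the yolk sac was taken off, is not given in the sources used here.

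Collagens are secreted proteins in which 3 chains wind around each other, with a glycine at every turn of the helix. Fibrillar collagens (types I, II, III, V, XI, XXIV and XXVII) assemble into banded fibrils, type IV collagens form the sheet of basement membranes, type VIII and X collagens build open networks, and FACIT collagens, named for their interrupted helices, sit on the surface of fibrils. At the stage of early organogenesis the embryo makes its first mesenchymal and basement membrane matrix, and cartilage has not yet formed.

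The deposited table holds 1 comparison per gene, which is the posterior probability of differential expression (PPDE) from EBSeq and 2 forms of the ratio of *Tip55*Δ/Δ over *Tip55*+/+, and no value of a single library. The mean normalized count of each genotype was recovered from that pair of ratios. No value per embryo could be given, the spread between replicates was not measurable, and no test was run here. Intervals are 95% exact binomial (Clopper-Pearson) intervals on the counts of 3 libraries per genotype, and they cover counting error only. The deposited PPDE takes the spread between libraries into account, so "fell" and "rose" are used only for genes with a PPDE above 0.95. Summed over all genes, the means came to 49138051 for wildtype and 47211544 for mutant embryos. *Kat5* itself had a mean of 2218 in wildtype and 1615 in mutant embryos, a ratio of 0.728 (interval 0.701 to 0.756, PPDE 0.999985). That value sums all splice forms and gives no level of *Tip55*.

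In *Tip55*Δ/Δ embryos, 3 of the 44 collagen genes fell and 2 rose. The genes that fell, *Col3a1*, *Col1a2* and *Col5a2*, are all fibrillar chains of types I, III and V, the collagens of mesenchyme and blood vessel walls. Those that rose, *Col24a1* and *Col16a1*, were expressed at low levels and are a minor fibrillar chain and a FACIT chain. Of the 20280 genes listed, 7.11% fell and 5.25% rose. All 5 collagens belong to the 30 whose mean reached 100 normalized counts in either genotype, and at that level 11.0% of 12558 genes fell and 7.67% rose. The number of collagens called was therefore close to the background in both directions. Summed ratios of the fibrillar, basement membrane and FACIT classes differed by more than counting error, but the spread between libraries was not measurable. In bulk RNA, fewer cells of a type and less RNA per cell cannot be told apart.

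**Figure D1:**
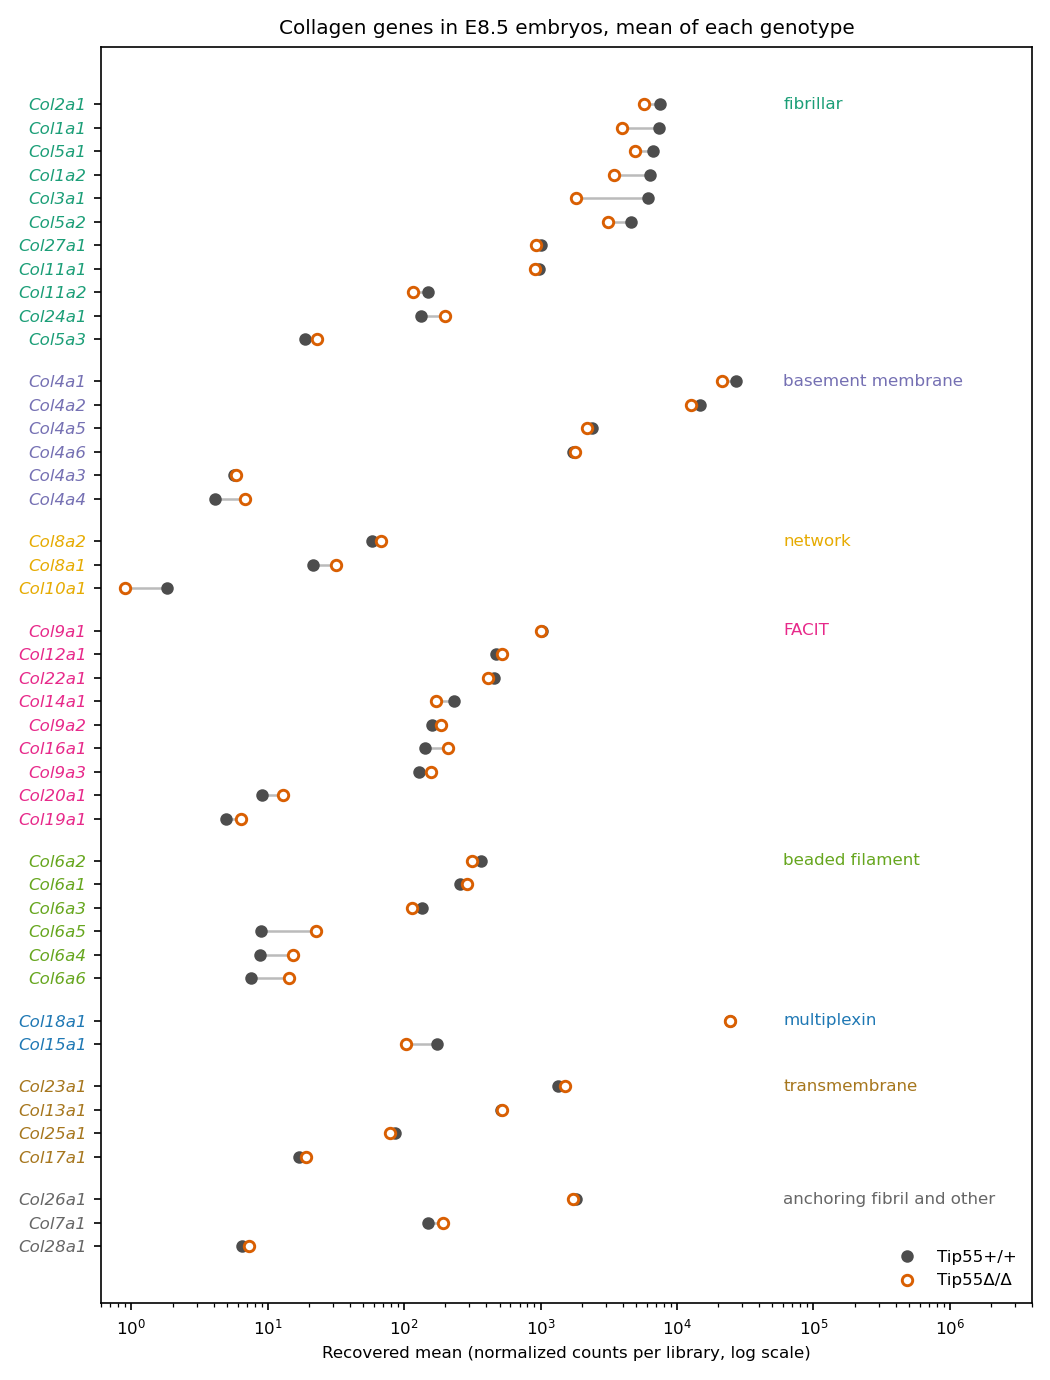
Recovered mean of each of the 44 collagen genes in normalized counts per library (log axis), grouped by class and ordered by the wildtype mean, with filled points for *Tip55*+/+ and open points for *Tip55*Δ/Δ (each the mean of 3 libraries, with no value per library). *Col3a1* shows the widest gap among the abundant genes, from 6090.5 to 1801, while *Col18a1* had 24348 and 24232.

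The upstream sequences of the 2 genes that fell and had a window among the promoter sequences, and of the 2 that rose, are shown because these are the collagens past the threshold. RefSeq sequences of GRCm38.p6 held a window for 35 of the 44 genes, and *Col5a2* was not among them. Only bases before the start of transcription that lie in no exon of the gene itself are printed, 5′ to 3′ on the strand of the gene, at chr1:45311288-45311537 for *Col3a1*, chr6:4505370-4505492 for *Col1a2*, chr3:145292222-145292471 for *Col24a1* and chr4:130047590-130047839 for *Col16a1*, all on the plus strand. The *Col1a2* stretch lies between exons of a longer form of the gene in the annotation, and part of the *Col16a1* window overlaps an antisense gene. Capitals mark matches to 4 short motifs searched on both strands, the CCAAT box (letters CCAAT), the GC box (letters GGGCGG), the TATA box (letters TATAAA) and the core of the cAMP response element (letters TGACG).
Col3a1: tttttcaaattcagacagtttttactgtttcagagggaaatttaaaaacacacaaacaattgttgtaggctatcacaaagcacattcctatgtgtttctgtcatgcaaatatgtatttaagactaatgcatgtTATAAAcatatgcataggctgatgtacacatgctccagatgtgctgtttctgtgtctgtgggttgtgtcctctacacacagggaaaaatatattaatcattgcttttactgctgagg
Col1a2: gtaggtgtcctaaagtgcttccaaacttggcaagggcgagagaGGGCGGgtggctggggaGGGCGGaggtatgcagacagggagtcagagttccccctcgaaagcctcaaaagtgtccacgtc
Col24a1: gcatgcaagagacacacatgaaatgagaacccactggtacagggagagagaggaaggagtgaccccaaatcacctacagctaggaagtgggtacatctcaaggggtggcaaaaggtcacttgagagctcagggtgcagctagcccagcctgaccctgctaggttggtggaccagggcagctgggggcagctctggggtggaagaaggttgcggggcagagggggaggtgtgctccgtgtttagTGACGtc
Col16a1: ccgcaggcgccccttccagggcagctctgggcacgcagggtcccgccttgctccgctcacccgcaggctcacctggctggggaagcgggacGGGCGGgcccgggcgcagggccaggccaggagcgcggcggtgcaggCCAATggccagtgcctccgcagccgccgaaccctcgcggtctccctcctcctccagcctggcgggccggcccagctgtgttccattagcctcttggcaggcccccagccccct
The *Col3a1* window had a GC content of 35.2% and held the letters of the TATA box 117 bases before the start. These letters were found at any position in 12.4% of 32851 RefSeq windows of the same 250 bases. The printed *Col1a2* stretch held the GC box at 2 places, a motif in 32.7% of all windows and in 57.9% of the collagen windows. The *Col24a1* window ended in the cAMP response element core (17.8% of all windows), and the *Col16a1* window, at 75.6% GC, held the GC box and also the CCAAT box (33.8% of all windows). The full *Col1a2* window also held a CCAAT box, 109 bases before the start and so past the end of the printed stretch, and thus had the same motifs as the *Col16a1* window. None of these matches shows that a factor binds there.

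Among fibrillar collagens, all chains of types I, III and V except *Col5a3* had ratios from 0.296 to 0.738. Of these, 3 fell, and *Col1a1* and *Col5a1* did not pass. The chains of types II, XI and XXVII had ratios from 0.768 to 0.940, and none of them passed. The groups were not cleanly apart, since the interval of *Col11a2* (0.666 to 0.886) holds the 0.738 of *Col5a1*. Summed over its 11 genes, the fibrillar class went from 40735 normalized counts in wildtype to 25087 in mutant embryos, a ratio of 0.616 (interval 0.610 to 0.621). Of these genes, 3 fell, 1 rose and 7 did not pass the threshold, and 9 had a ratio below 1, beside 6730 of the 12558 genes whose mean reached 100. The median log2 ratio of the class was −0.38, against −0.02 over all genes whose mean reached 100.

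*Col3a1*, the only chain of type III collagen, which makes the fine fibrils of soft tissue, lies at 45311538 to 45349706 of chromosome 1 (GRCm38, plus strand). With a mean of 6090.5 normalized counts in wildtype and 1801 in mutant embryos, it fell 3.38-fold to a ratio of 0.296 (interval 0.287 to 0.305, PPDE 1). No other collagen with a mean of at least 100 had a ratio this low. *Col5a2*, a chain of type V collagen, which starts fibrils and sets their width, lies 24.6 kb away on the opposite strand, from 45374321 to 45503282. It fell from 4584 to 3140.2, a ratio of 0.685 (interval 0.667 to 0.703, PPDE 0.999999). The neighbours thus changed in the same direction, with intervals that did not overlap.

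*Col1a2*, the second chain of type I collagen, on the plus strand of chromosome 6 (4504814 to 4541544), fell from 6341 to 3442 normalized counts, giving a ratio of 0.543 (interval 0.530 to 0.556, PPDE 1). Its partner *Col1a1*, on chromosome 11 from 94936224 to 94953042, had 7391 in wildtype and 3924 in mutant embryos, a ratio of 0.531 (interval 0.519 to 0.543) with a PPDE of 0.857, below the threshold. The ratios of the 2 chains differed by no more than counting error, yet only *Col1a2* passed, and without values per library the difference between their PPDE could not be traced. *Col5a1*, the partner of *Col5a2*, had 6611 and 4878 (ratio 0.738, interval 0.722 to 0.754) with a PPDE of 0.532. The minor chain *Col5a3* was at 18.7 and 23.1, a ratio of 1.23 whose interval, 0.855 to 1.79, holds 1. Taking the 5 abundant chains of types I, III and V together, a set formed after the values were seen, the sum went from 31017 to 17186 with a ratio of 0.554 (interval 0.548 to 0.560), and each of the 5 ratios was below 1.

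*Col2a1*, the main collagen of notochord and cartilage, had 7445 normalized counts in wildtype and 5736 in mutant embryos, a ratio of 0.770 (interval 0.755 to 0.786, PPDE 0.00995). *Col11a1*, whose protein joins type II collagen in the same fibrils, had 969 and 911 (ratio 0.940, interval 0.891 to 0.99). Its partner *Col11a2* had 149.9 and 115 (ratio 0.768, interval 0.666 to 0.886). The 3 genes gave a summed ratio of 0.790 (interval 0.775 to 0.804), and none passed the threshold. The 5 abundant chains of types I, III and V gave 0.554, but that set, without *Col5a3*, was formed after the values were seen. No difference between fibrillar types is read from these 2 sums. *Col27a1*, a fibrillar collagen of early cartilage, had 1001 and 917 (ratio 0.916, interval 0.869 to 0.964).

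*Col24a1*, a minor fibrillar chain known from bone and the eye, is on the plus strand of chromosome 3 (145292472 to 145552011). It rose from 133 to 199 normalized counts, giving a ratio of 1.49 (interval 1.31 to 1.70, PPDE 0.996). It was the only fibrillar gene with a mean of at least 100 whose ratio was above 1.

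**Figure D2:**
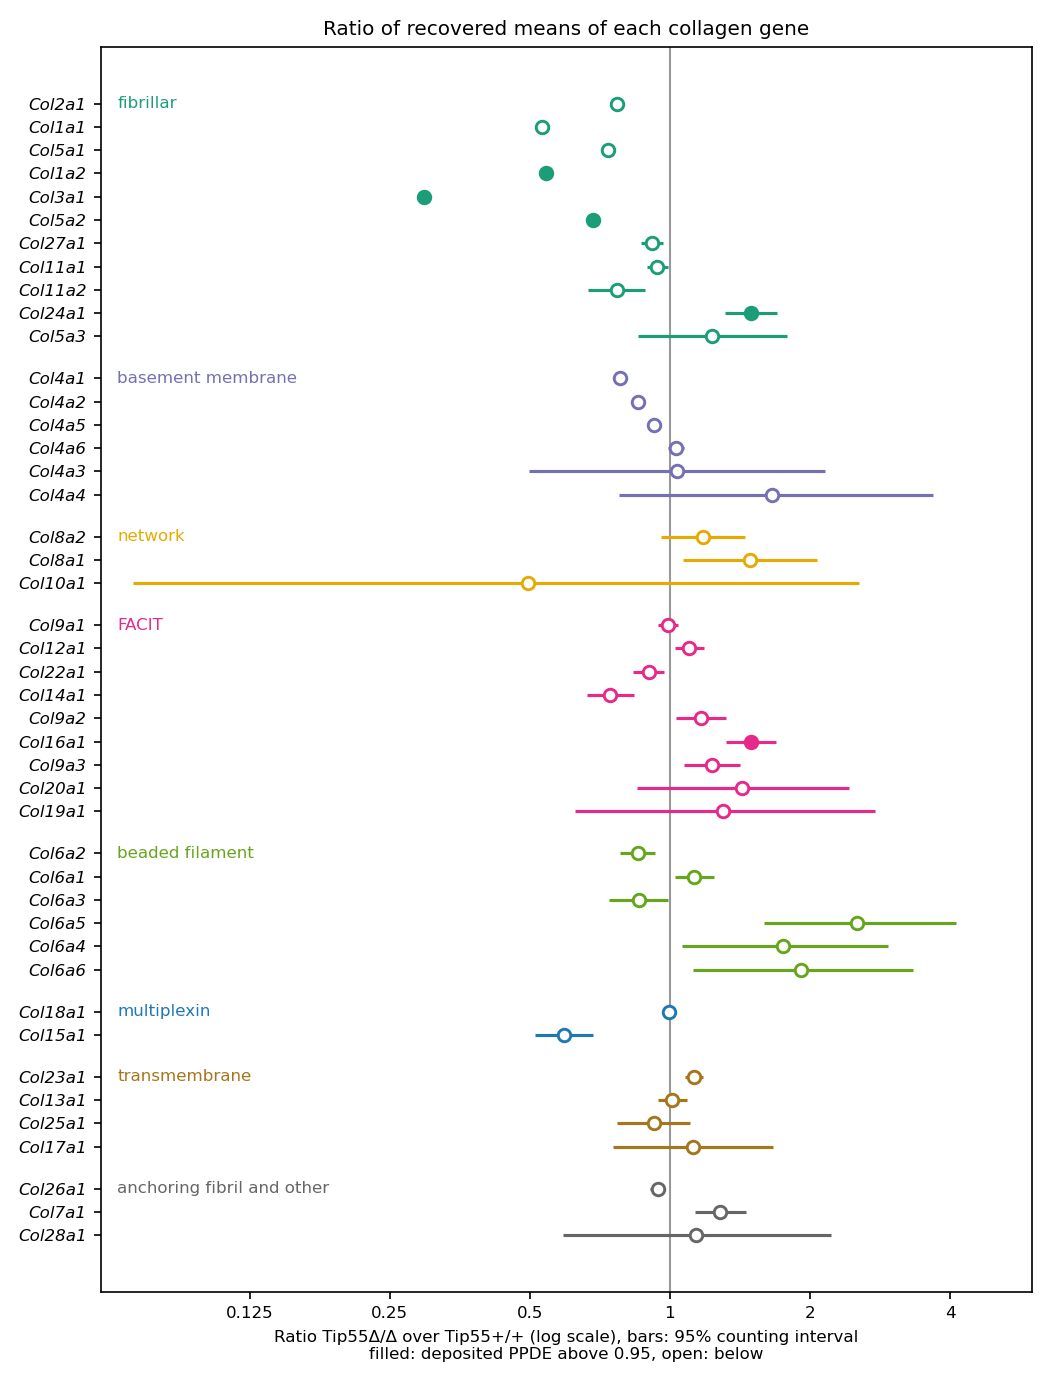
Ratio of the recovered mean in *Tip55*Δ/Δ over that in *Tip55*+/+ embryos (log axis) for each of the 44 collagen genes by class, with 95% counting intervals as bars, filled points for a deposited PPDE above 0.95 and open points for the rest. The filled points are *Col3a1* at 0.296, *Col1a2* at 0.543, *Col5a2* at 0.685, and *Col24a1* and *Col16a1* at 1.49, and intervals widen for genes with few counts.

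None of the 6 basement membrane genes passed the threshold. The class had 46063 normalized counts in wildtype and 37887 in mutant embryos, a ratio of 0.823 (interval 0.816 to 0.829), above that of the fibrillar class by more than counting error. The median log2 ratio of its genes was −0.03. The sum was carried by *Col4a1* and *Col4a2*, whose products form the common type IV network under almost every epithelium and endothelium.

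*Col4a1*, on the minus strand of chromosome 8 (11198423 to 11312826), had 27125 normalized counts in wildtype embryos, the highest of any collagen gene, and 21224 in mutant embryos (ratio 0.782, interval 0.774 to 0.791, PPDE 0.0240). *Col4a2* starts from the other strand, from 11312805 to 11449287, and the first exons of the pair share 22 bases. It had 14815 and 12659 (ratio 0.854, interval 0.843 to 0.866, PPDE 0.00682), and its log2 ratio of −0.23 became 0.04 once the GC trend described further on was subtracted. *Col4a5* and *Col4a6*, which make the type IV network of smooth muscle and skin, stand head to head on the X chromosome with 1308 bases between them. *Col4a5* had 2375 and 2198 (ratio 0.926, interval 0.895 to 0.957), and *Col4a6* had 1739 and 1794 (ratio 1.03, interval 0.993 to 1.07). *Col4a3* and *Col4a4*, which replace the common chains in the kidney glomerulus, had means from 4.08 to 6.77, and their difference was not detectable at this depth, with a summed ratio of 1.30 (interval 0.779 to 2.18).

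The type IV pairs thus kept their order of abundance in both genotypes, with *Col4a1* and *Col4a2* far above *Col4a5* and *Col4a6* per length and *Col4a3* and *Col4a4* near the bottom of the collagens. *Col4a1* had 4100 normalized counts per kb of its longest transcript in wildtype and 3208 in mutant embryos, *Col4a5* had 363 and 336, and *Col4a3* had 0.657 and 0.680.

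The network class, *Col8a1*, *Col8a2* and *Col10a1*, was expressed at a low level, and no gene of it passed the threshold. Its 3 genes had 80.9 normalized counts in sum in wildtype and 100.5 in mutant embryos, a ratio of 1.24 (interval 1.05 to 1.48). Their median log2 ratio was 0.23. *Col8a2*, a collagen of the sheet under the corneal endothelium, had 57.7 and 67.9 (ratio 1.18, interval 0.955 to 1.45). Its partner *Col8a1*, also made by vessel walls, had 21.4 and 31.7 (ratio 1.48, interval 1.07 to 2.07, PPDE 8.48e-16). *Col10a1*, the marker of hypertrophic cartilage, which does not exist at this stage, had 1.81 and 0.897, a ratio of 0.496 whose interval runs from 0.0701 to 2.55. Where type VIII and X were counted together with types IV and VI, the ratio was 0.826, because type IV holds most of that sum.

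Summed as a class, FACIT collagens were at nearly the same level in both genotypes, though single members differed. The 9 genes had 2618 normalized counts in wildtype and 2684 in mutant embryos, a ratio of 1.03 (interval 0.994 to 1.06) that lies above those of the fibrillar and basement membrane classes by more than counting error. Of the 9, 1 rose and none fell, and 6 had a ratio above 1, beside 9524 of all 18622 genes with a ratio. The median log2 ratio of the class was 0.22, against 0.01 over all genes with a ratio, and its members ran from −0.43 to 0.58.

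*Col16a1*, a FACIT chain of skin and smooth muscle, on chromosome 4 from 130047840 to 130099283, rose from 141 to 210.4 normalized counts, giving a ratio of 1.49 (interval 1.32 to 1.69, PPDE 0.996). *Col9a1*, which covers type II fibrils, was the most abundant FACIT gene with 1018 and 1009.6 (ratio 0.992, interval 0.943 to 1.04). Its partners *Col9a2* and *Col9a3* had 159 and 185 (ratio 1.17, interval 1.03 to 1.32) and 128 and 158 (ratio 1.23, interval 1.08 to 1.41). The 3 type IX genes gave a summed ratio of 1.04 (interval 0.992 to 1.08), against 0.790 for types II and XI, the fibrils that their products decorate.

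The remaining FACIT chains did not share one direction of the ratio, and none of them passed the threshold. *Col12a1* had 473 normalized counts in wildtype and 520.2 in mutant embryos (ratio 1.10, interval 1.02 to 1.18). *Col14a1*, its close relative, had 229.8 and 171 (ratio 0.745, interval 0.663 to 0.836, PPDE 0.391). *Col22a1*, a collagen of tissue junctions, had 455 and 409.7 (ratio 0.9, interval 0.832 to 0.973). *Col19a1* and *Col20a1* were between 4.90 and 12.8, with intervals that hold 1.

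**Figure D3:**
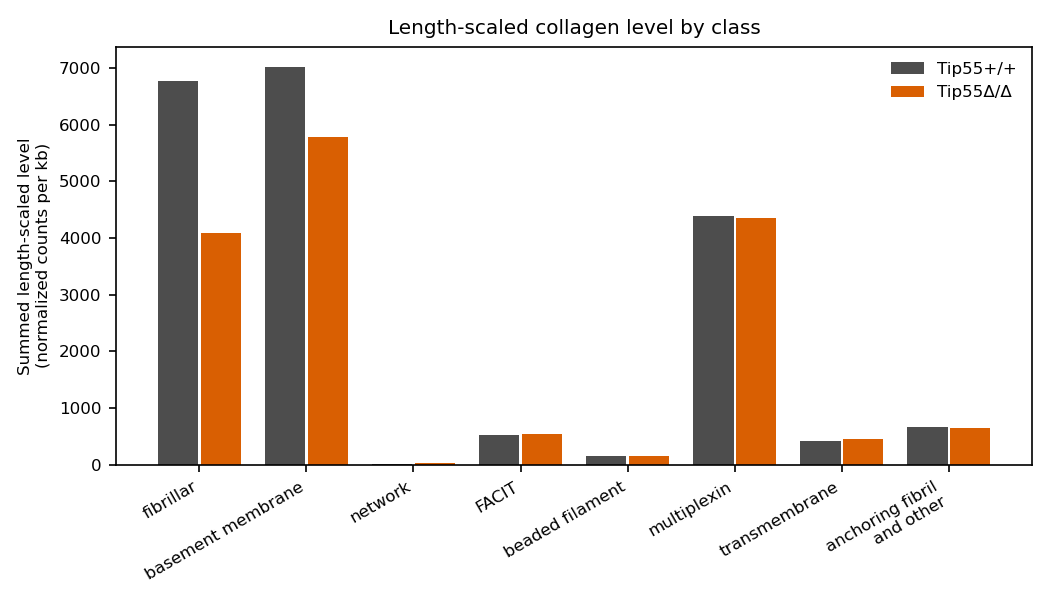
Summed length-scaled level of the collagen genes of each class (normalized counts per kb of the longest transcript) as a dark bar for *Tip55*+/+ and an orange bar for *Tip55*Δ/Δ embryos, each bar the sum of the means of 3 libraries, with no error bar because no value per library was at hand. Fibrillar genes stood at 6768 and 4097, basement membrane genes at 7023 and 5779, and network genes at 18.1 and 22.2.

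Among the other classes, none passed the threshold in either direction. The beaded filament collagens of type VI, which form microfibrils around cells, had a summed ratio of 0.983 (interval 0.928 to 1.04). *Col6a2* had 365 normalized counts in wildtype and 311 in mutant embryos (ratio 0.852, interval 0.780 to 0.931), *Col6a1* had 256 and 289 (ratio 1.13, interval 1.02 to 1.25), and *Col6a3* had 134 and 115 (ratio 0.857, interval 0.740 to 0.993).

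*Col6a4*, *Col6a5* and *Col6a6*, later duplicates that stand in a row on chromosome 9, had the highest ratios of all collagens at counts below 25. *Col6a5* had 8.95 and 22.6 (ratio 2.53, interval 1.59 to 4.11, PPDE 0.561), *Col6a4* had 8.81 and 15.4 (ratio 1.75, interval 1.06 to 2.94, PPDE 0.230), and *Col6a6* had 7.49 and 14.3 (ratio 1.91, interval 1.12 to 3.34, PPDE 2.48e-15). Together they gave a ratio of 2.07 (interval 1.57 to 2.76), against 0.947 (interval 0.892 to 1.01) for *Col6a1* to *Col6a3*, a split chosen after the values were seen. The 3 genes are alike in sequence, and how their reads were assigned to one or the other is not given in the sources used here.

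The multiplexins *Col18a1* and *Col15a1*, which carry sugar chains and link basement membranes to the matrix beside them, differed from each other. *Col18a1*, the source of endostatin, had 24348 normalized counts in wildtype and 24232 in mutant embryos (ratio 0.995, interval 0.985 to 1.01, PPDE 0.00158). It had the highest length-scaled level of all collagens in both genotypes, at 4352 and 4331 normalized counts per kb. *Col15a1*, a collagen of capillary and muscle basement membranes, had 174 and 103 (ratio 0.593, interval 0.513 to 0.684, PPDE 0.463). It is the only collagen outside types I and III that was more than 1.5-fold lower with an interval that leaves out 1.

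Transmembrane collagens, which are anchored in the cell surface, had a summed ratio of 1.09 (interval 1.05 to 1.13). *Col23a1* had 1346 and 1517 (ratio 1.13, interval 1.08 to 1.18, PPDE 0.275), and *Col13a1*, a collagen of adhesion sites, had 511 and 517 (ratio 1.01, interval 0.942 to 1.09). *Col17a1* and *Col25a1* were between 17.0 and 85.2. *Col7a1*, the anchoring fibril of skin, had 149.9 and 193 (ratio 1.28, interval 1.13 to 1.46, PPDE 0.119). *Col26a1* had 1822 and 1714 (ratio 0.941, interval 0.906 to 0.978), and *Col28a1* was at 6.43 and 7.32.

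As a share of the length-scaled level of all collagens, the fibrillar class made up 33.9% in wildtype and 25.6% in mutant embryos. The basement membrane class made up 35.2% and 36.1%, the multiplexins 22.0% and 27.1%, the FACIT class 2.61% and 3.38%, and the network class 0.0906% and 0.138%. *Col3a1* was the seventh collagen by this level in wildtype embryos and ranked 11 in mutant embryos, while *Col18a1*, *Col4a1*, *Col4a2*, *Col2a1*, *Col1a1* and *Col1a2* held the first 6 places in both genotypes in that order. All collagens together gave 0.242% of the normalized counts in wildtype and 0.201% in mutant embryos, a ratio of summed counts of 0.799 (interval 0.795 to 0.803), and the median log2 ratio over the 44 genes was 0.01. The abundant members carried the lower sum. All 9 genes with a wildtype mean of at least 3000 had a ratio below 1, of which *Col18a1* alone had an interval that holds 1. The share of all genes at such a wildtype mean was not computed, and choosing genes by the wildtype mean alone favours ratios below 1. Nothing particular to collagens is therefore read from these 9 genes. Of the 14 genes with means under 100, 12 had a ratio above 1. Of all 18622 genes with a ratio, 9524 had one above 1, and of the 12558 with a mean of at least 100, 5828 did. Genes under that mean thus leaned above 1 among all genes as well. How the size of that lean compares with the collagens was not computed, and nothing particular to collagens is read from it.

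At a mean of at least 100, the interval lay below 1 for 18 of 30 collagens and above 1 for 8, whereas 43.4% of all genes at that level lay below and 36.1% above. Spearman's rho between the log2 ratio and the log2 mean of both genotypes was −0.39 over these 30 collagens and −0.12 over all 12558 genes at that level. These are descriptions across genes of the same libraries, and genes are not independent replicates.

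Chains of 1 collagen type are built into the same trimers, so their levels were set against each other within each genotype. Per kb of the longest transcript, *Col1a1* was at 1.05 times *Col1a2* in wildtype embryos (interval 1.03 to 1.07) and 1.03 times in mutant embryos (interval 1.0 to 1.06), and the ratio between the genotypes was 0.978 (interval 0.946 to 1.01). The balance of the type I chains thus differed between genotypes by no more than counting error. Type I collagen is known to take up more of the first chain than of the second. *Col4a1* was at 1.79 times *Col4a2* in wildtype and 1.63 times in mutant embryos, a ratio between genotypes of 0.916 (interval 0.9 to 0.932). *Col5a1* over *Col5a2* was 1.14 and 1.22, with a ratio between genotypes of 1.08 (interval 1.04 to 1.11). In type VI, *Col6a1* over *Col6a2* was 0.839 in wildtype and 1.11 in mutant embryos, a ratio between genotypes of 1.32 (interval 1.16 to 1.51). *Col9a1* over *Col9a2* was 4.88 and 4.16, with a ratio between genotypes of 0.851 (interval 0.746 to 0.972). These levels depend on the length used for each gene, and with the union of all exons *Col1a1* was at 2.21 and 2.16 times *Col1a2* and *Col6a1* at 1.33 and 1.76 times *Col6a2*. The ratios between genotypes do not depend on length.

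Across all genes, the log2 ratio went down with the GC content of the transcript, with a Spearman's rho of −0.39 over 12478 genes that reached a mean of 100. Over the 30 collagens at that level rho was 0.13. Collagen transcripts had a median GC content of 55.1%, against 49.6% over all genes. When the trend over all genes was subtracted, the log2 ratio of *Col3a1* went from −1.76 to −1.69, that of *Col1a2* from −0.88 to −0.76, that of *Col1a1* from −0.91 to −0.70 and that of *Col5a2* from −0.55 to −0.53. Values near the trend moved to near 0, with *Col2a1* at −0.06, *Col4a1* at −0.18 and *Col11a2* at −0.04, and *Col18a1* became 0.26. *Col16a1* went from 0.58 to 0.87 and *Col24a1* from 0.58 to 0.62. With the trend removed, the summed ratios were 0.698 for fibrillar, 0.941 for basement membrane, 1.10 for FACIT and 1.38 for network collagens, in the same order as before, and the median log2 ratio of fibrillar collagens became −0.10. The part of base composition in the class ratios was not tested beyond this.

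**Figure D4:**
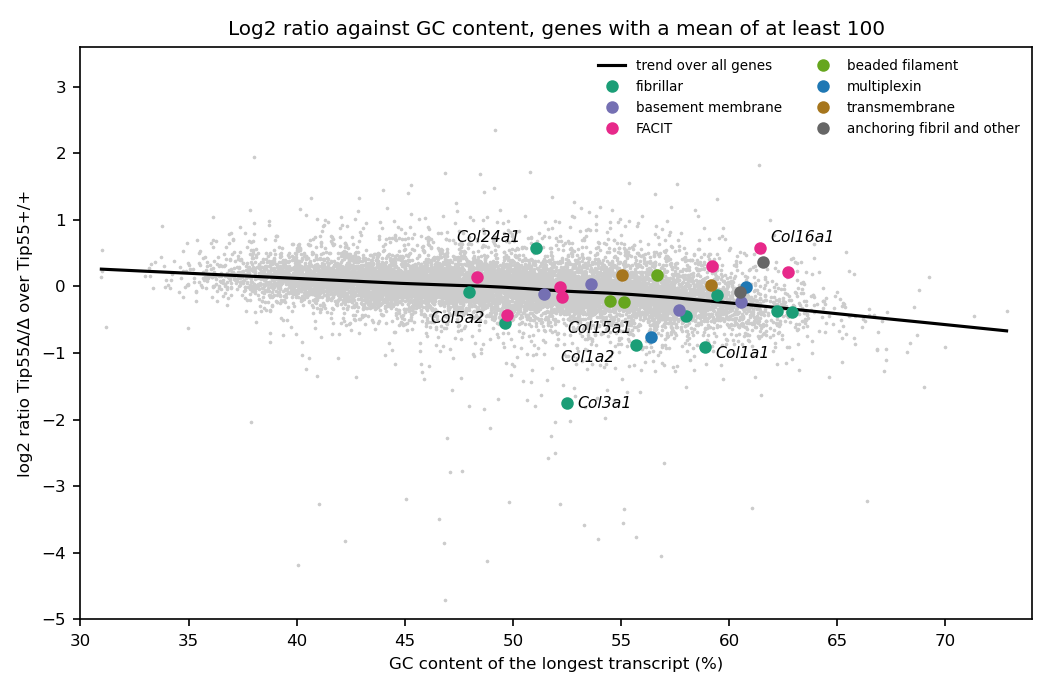
Log2 ratio of *Tip55*Δ/Δ over *Tip55*+/+ against the GC content of the longest transcript (%) for genes whose mean over both genotypes reached 100 (grey points), with the lowess trend as a black line and collagens that reach 100 in either genotype as points coloured by class. *Col3a1*, *Col1a1* and *Col1a2* lay below the trend, at −1.76, −0.91 and −0.88, and *Col16a1* and *Col24a1* above it, both at 0.58.

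The gene structure of the classes differs in a way that the rule for members did not use. Helices of fibrillar collagens are known to be encoded by exons of 54 bases, which hold whole repeats of the glycine triplet. In the annotation, 305 of the 627 inner coding exons of the 11 fibrillar genes (48.6%) had exactly 54 bases, and 83.9% had a length divisible by 9. FACIT genes had 109 of 414 (26.3%), basement membrane genes 12 of 284 (4.23%), and the network genes had no inner coding exon. Genes that are no collagens had 0.413%. *Col24a1*, which rose, and *Col27a1* each had 33 such exons, the most of all collagens, and *Col3a1*, *Col1a2* and *Col5a2*, which fell, each had 24. The fibrillar genes that fell and the one that rose thus share this structure.

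Of 51 genes known to modify, fold, crosslink, bind or cut collagen, 6 fell and 1 rose in mutant embryos. All 7 belong to the 41 whose mean reached 100, so that 14.6% fell and 2.44% rose, beside 11.0% and 7.67% of all genes at that level, and nothing particular to these lists is read from the shares. Of 14 genes for prolyl and lysyl modification, 3 fell and 1 rose. *P4ha3*, a subunit of prolyl hydroxylase, which stabilizes the helix, fell from 170.3 to 91.5 normalized counts (ratio 0.538, interval 0.462 to 0.624, PPDE 1). *P3h1*, a prolyl hydroxylase that modifies few sites of type I collagen, fell from 1950 to 1400 (ratio 0.718, interval 0.690 to 0.747, PPDE 0.998), and the galactosyltransferase listed as *Glt25d1* fell from 5750 to 5018 (ratio 0.873, interval 0.854 to 0.892, PPDE 0.997). *Plod2*, the lysyl hydroxylase of the telopeptides, rose from 4172 to 5102 (ratio 1.22, interval 1.19 to 1.25, PPDE 1). *P4hb*, the most abundant gene of this list, had 34270 and 30393 (ratio 0.887, PPDE 0.0254). The median log2 ratio of the list was −0.21.

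*Serpinh1*, whose product HSP47 is a chaperone dedicated to collagen, fell from 40507 to 28630 (ratio 0.707, interval 0.701 to 0.713, PPDE 1). It was the most abundant and the only one of 8 folding and secretion genes that passed, and 6 of the 8 had a ratio below 1. *Mmp14*, a membrane collagenase, fell from 4185 to 1872 (ratio 0.447, interval 0.433 to 0.462, PPDE 1), and *Timp2*, an inhibitor that also helps *Mmp14* activate gelatinase, fell from 2392 to 1975 (ratio 0.826, interval 0.798 to 0.855, PPDE 1). The gelatinase *Mmp2*, the most abundant of that list of 8, had 5378 and 5325 (ratio 0.99, interval 0.969 to 1.01).

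No gene passed among 14 for propeptide processing and crosslinking, 7 collagen receptors and 9 laminins and other partners in basement membranes. Their most abundant genes were *Pxdn*, the peroxidase that crosslinks type IV collagen, with 18923 and 16466 (ratio 0.870, interval 0.860 to 0.881), the integrin chain *Itgb1* with 15417 and 14302 (ratio 0.928, interval 0.916 to 0.940), and the laminin chain *Lamc1* with 20092 and 21639 (ratio 1.08, interval 1.07 to 1.09). The summed ratio of the basement membrane partners was 0.882 (interval 0.878 to 0.887), beside 0.823 for type IV collagens, and their median log2 ratio was −0.05. Of these 9 partners, 6 had a ratio below 1 and 3 above. The lowest was that of *Hspg2*, named after its values were seen, with 18423 and 10595 (ratio 0.575, interval 0.567 to 0.583, PPDE 0.567).

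**Figure D5:**
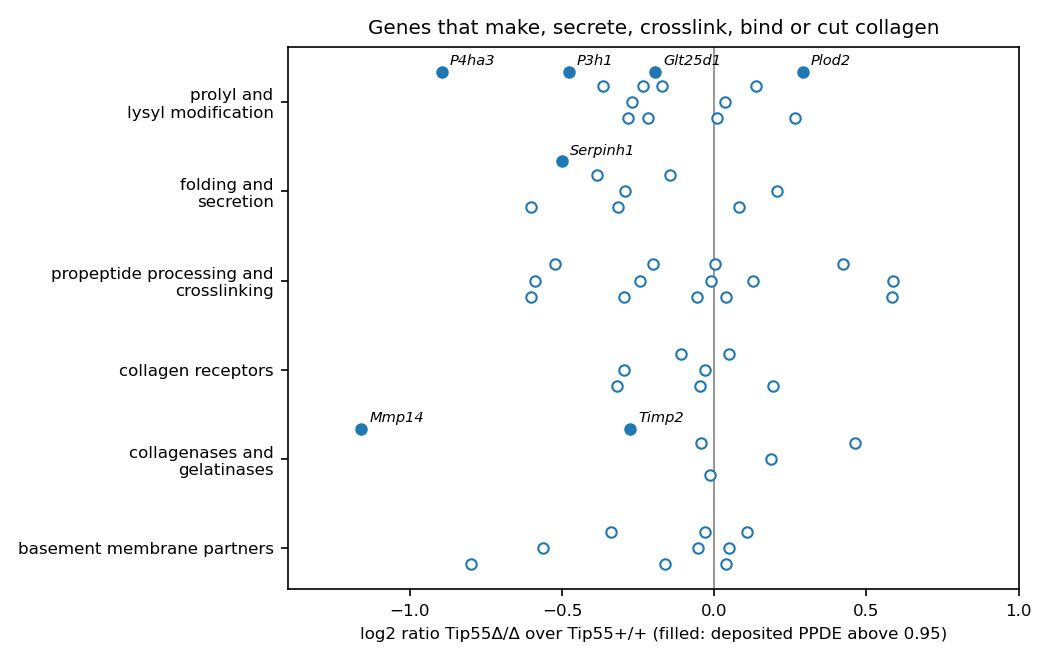
Log2 ratio of *Tip55*Δ/Δ over *Tip55*+/+ for the genes of 6 lists that make, secrete, crosslink, bind or cut collagen or share the basement membrane with it, with 1 point per gene, filled where the deposited PPDE is above 0.95 (the height within a list carries no meaning). *Mmp14* at −1.16 and *P4ha3* at −0.90 lay farthest to the left, and *Plod2* at 0.29 was the only filled point above 0.

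Markers of other cell types that could be in the dissected embryos were set beside these results. All 9 markers of visceral endoderm and yolk sac, tissues that lay down type IV collagen, had a ratio below 1 and none passed the threshold, with a summed level of 177927 normalized counts in wildtype and 110263 in mutant embryos and *Apob* the most abundant at 57848 and 40111. Their summed ratio of 0.620 lay below the 0.823 of the type IV collagens. Of 6 markers of notochord and floor plate, where *Col2a1* is made, 5 had a ratio above 1 and none passed. Their sums were 4595 and 6107, with *T* the most abundant at 2350.0 and 3794. Most of the difference between the sums came from *T*, at a ratio of 1.61. The other markers of this list had ratios from 0.905 to 1.29. The 6 sclerotome and chondrogenic markers gave sums of 4442 and 4570, and 4 of them had a ratio below 1, with a median log2 ratio of −0.13. *Sox9*, the most abundant, was at 2592 and 2856, and none passed. The 7 endothelial markers, from cells that express *Col4a1* and *Col15a1*, gave sums of 19945 and 18729, and 5 of them had a ratio below 1, with a median log2 ratio of −0.28. *Kdr*, the most abundant, was at 6596 and 7346, and none passed.

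Among 9 markers of parietal endoderm and trophoblast, *Elf5* rose from 45.0 to 95.5 (PPDE 0.999925), *Krt19* was the most abundant at 2378 and 2680, and the list gave sums of 4461 and 4862. Of the 9, 5 had a ratio below 1, with a median log2 ratio of −0.11, and the placental hormone genes *Prl3d1*, *Prl2c2* and *Prl3b1*, named after their values were seen, had ratios of 0.249, 0.18 and 0.28 with intervals below 1 and did not pass. Among 11 markers of the maternal decidua, *Prl8a2* fell from 503 to 27.6 (PPDE 0.955), while *Gzmf* rose from 1.65 to 25.0 (PPDE 0.962) and *Gzmg* from 1.31 to 19.9 (PPDE 0.968). *Hand2* was the most abundant at 3121 and 3065, and 4 of 11 ratios were below 1. The list gave sums of 8282 and 8021, mostly from *Hand2*, *Des* (1727 and 1633) and *Cryab* (1326 and 1371). In bulk RNA, embryonic and maternal sources of these RNAs cannot be told apart, so no decidual content was read from the sums. No marker in these 6 lists was at 0 in either genotype, and their levels in single libraries were not at hand. The part that a different mix of cell types has in the collagen ratios was not tested.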

How the data were processed

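RNA was isolated from E8.5 embryos, mRNA was enriched, and libraries were made and sequenced by BGI-seq. Reads were mapped to mm10 and quantified with RSEM, and genotypes were compared with EBSeq by the authors. Versions, gene annotation and filters are not given in the sources used here. The deposited table gives per gene the posterior probabilities PPEE and PPDE, each between 0 and 1. It also gives RealFC, the deposited ratio of normalized means of *Tip55*Δ/Δ over *Tip55*+/+ with 0.01 added to both means, and PostFC, a second deposited ratio drawn toward 1. These are comparison columns of the authors, with 3 libraries per genotype combined, and the PPDE is printed as deposited.

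The mean of each genotype was solved from the pair of ratios. The constant of PostFC was 0.514, the median over 631 genes at 0 in the knockout mean and 582 at 0 in the wildtype mean. A total of 8 genes with a rounding error over 5% were left out, and the largest error among collagens was 1.03%. The recovery, the trend removal and the intervals were checked on simulated data with counting error only and a straight-line GC trend. Spread between libraries was not simulated, so that check says nothing about it. Genes at or under 3 summed counts in both genotypes got no ratio, and the interval of a ratio of chain ratios is a normal approximation on log counts. The GC content and length of the longest transcript, exon lengths and positions came from GENCODE vM21 (GRCm38), with 19995 of the 20280 symbols matched, including all 44 collagens. The trend was a lowess curve with a span of 0.3 over 12305 genes. The tools were scipy 1.17.1, statsmodels 0.14.6, pandas 2.3.3 and numpy 2.4.6 under Python 3.11.15.

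Named were all collagens with a mean of at least 100 in either genotype, with a PPDE above 0.95, or past 1.5-fold with an interval that leaves out 1, and from the other lists each gene with a PPDE above 0.95 and the most abundant one. Further collagens were named where few. The collagens, their classes and the lists of partners and markers were chosen with earlier results of these data known. *Col21a1* and the marker *Tpbpa* are not listed in the table and were not analysed here. Exons of 13 collagens overlap those of other genes by at most 6.07% of their bases. The deposited ratios do not show whether strand information was used, so reads of overlapping or antisense genes may be mixed. Alternatives tried were other PPDE thresholds and level minimums, GC and median centring, other class limits, other constants and the union length of exons.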

Additional observations from a re-analysis of the deposited data

How the results depend on the processing

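Of 99 alternative values computed for 28 results, 66 stayed within the limits set, 31 moved and 2 reversed. With 1.5-fold as a minimum, 2 collagens fell and 0 rose, because *Col24a1* and *Col16a1* had ratios of 1.49. PPDE thresholds of 0.9 and 0.99 gave 3 and 2, as at 0.95. With the GC trend removed, summed ratios were 0.698 for fibrillar, 0.941 for basement membrane, 1.10 for FACIT, 1.07 for beaded filament and 1.2 for multiplexin collagens, and the median log2 ratios of fibrillar and basement membrane collagens were −0.10 and 0.057. Centred on the median of all genes, a shift of −0.02 on the log2 scale, the fibrillar, basement membrane and multiplexin ratios were 0.625, 0.835 and 1.01. Without the member with the most counts they were 0.581, 0.880 and 0.593, the last being *Col15a1* alone, and beaded filament collagens gave 1.10. Counted with the multiplexins, basement membrane collagens gave 0.882, and network collagens counted with types IV and VI reversed to 0.826. Leaving out single members took the basement membrane median up to 0.045 and the network median down to −0.39. With the union length of exons, the chain ratios in *Tip55*+/+ and *Tip55*Δ/Δ were 2.21 and 2.16 for *Col1a1* over *Col1a2*, 1.62 and 1.49 for *Col4a1* over *Col4a2*, 1.63 and 1.75 for *Col5a1* over *Col5a2*, 1.33 (reversed) and 1.76 for *Col6a1* over *Col6a2*, and 3.91 and 3.33 for *Col9a1* over *Col9a2*. With the GC trend removed, the ratios between genotypes were 1.04 for type I, 0.862 for type IV, 1.21 for type V, 1.36 for type VI and 0.707 for type IX, so that the pair farthest from 1 was type IX and no longer type VI. No paired analysis was possible because the table holds no value per library, and for the same reason no replicate could be left out. Depth set the limit for collagens with means under 100, where 4 of 14 intervals left out 1.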
